A study of Homo with 4 samples.

Results

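The genes described here are 9 core genes of transforming growth factor beta (TGF-beta) signalling: the ligands TGFB1 and TGFB2, the receptors TGFBR1 and TGFBR2, the signal transducers SMAD2, SMAD3 and SMAD4, and the inhibitors SMAD7 and SKIL. They were chosen by name, and each name was tied to an Ensembl gene by its position on GRCh38. They are 9 of the 20263 genes and 59 of the 95139 transcripts in the count table. RNA-seq was performed in the established human line H1299, derived from a non-small cell lung carcinoma, after lentiviral delivery of a control short hairpin RNA (shCtrl, n = 2, genotype given as WT) or of a hairpin against IGF2BP3 (shIGF2BP3, n = 2). IGF2BP3 is an RNA-binding protein that recognises methylated adenosines in mRNA and affects mRNA stability. All cells grew in medium with fetal bovine serum, and both groups were infected. The study speaks of shRNAs against IGF2BP3 in the plural and does not state which hairpin each of these libraries carries, so the spread in shIGF2BP3 may include a difference between hairpins. The labels call the libraries biological replicates without describing separate cultures, so each p-value measures only the spread between these libraries.

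TGF-beta is secreted in a latent form, and once released it brings together a type II receptor (TGFBR2) and a type I receptor (TGFBR1). The type I receptor phosphorylates SMAD2 and SMAD3, which join SMAD4 and enter the nucleus to change transcription. SMAD7 blocks the receptors and SKIL, also called SnoN, represses the SMAD complexes on DNA. In lung epithelium the pathway is known for restraining proliferation and, in carcinoma cells, for promoting epithelial-mesenchymal transition.

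Total counts lay between 29709686 and 34817513 per library, and mitochondrially encoded genes took 9.11% to 17.0% of them. IGF2BP3 itself was measured at 41.1 and 32.9 CPM (counts scaled to a common library size) in shCtrl and at 26.4 and 24.8 CPM in shIGF2BP3. Both shIGF2BP3 libraries were thus below both controls, with a log2 fold change of -0.53 ± 0.17 (SE). This fold was under the 1.5 used for calls, and the adjusted p of edgeR's quasi-likelihood test was 0.472. It would have been called without shCtrl replicate 2 (-0.685), with library totals in place of TMM (-0.619) and by limma on log2 FPKM with pseudocounts of 1 (-0.600) and 0.1 (-0.681). The median chi-square per gene between replicates, scaled by library totals without TMM, was 9.13 in shCtrl and 6.36 in shIGF2BP3, where sampling noise alone gives 0.455. These values include any shift in composition between the replicates, which TMM would correct, and its part was not tested. The labelled cell type is epithelial. KRT8 (699 to 926 CPM) and KRT18 (1044 to 1398 CPM) were abundant, whereas EPCAM, KRT19 and CDH1 did not exceed 0.354 CPM in any library, and VIM lay between 4338 and 7100 CPM. Of the 3 leukocyte markers, PTPRC and CD3E were at 0 in all 4 libraries and CD68, a lysosomal protein, lay between 44.4 and 49.9 CPM, and the summed endothelial and fibroblast markers did not exceed 1.74 CPM.

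None of the 9 TGF-beta genes passed the test at the gene level. A gene was called where it differed 1.5-fold or more and its p before adjustment did not exceed 0.05. By this rule 0 of 9 were called, against 5.32% of the 13379 genes tested (712 genes). At an adjusted p under 0.05 the count was 0 of 9 and also 0 of all 13379 genes, of which 1411 had a p of at most 0.05 before adjustment. DESeq2 called 155 of all genes at the adjusted threshold. All 9 genes passed the filter on low counts. Their estimated differences ran from -0.10 to 0.65 on the log2 scale, with a median of 0.08 against -0.0019 for all genes tested. In 4 of 9 genes the groups did not overlap, which holds for 46.8% of all genes tested. In bulk RNA, fewer cells of a type and less RNA per cell cannot be told apart.

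**Figure D1:**
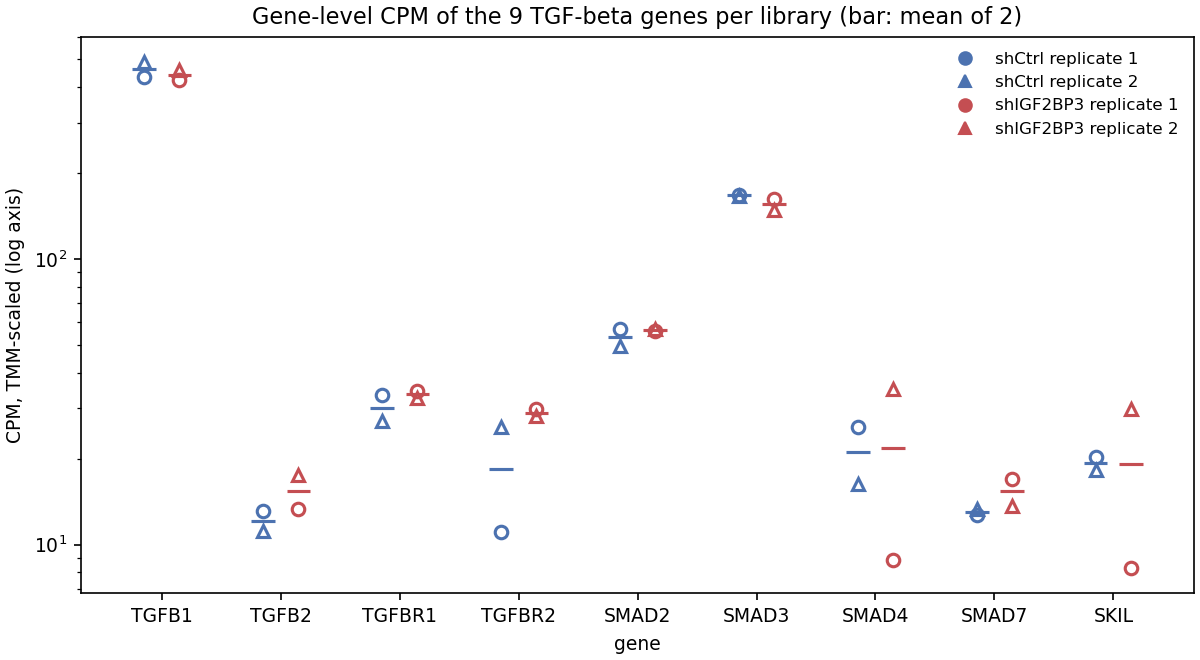
Gene-level abundance of the 9 TGF-beta genes in each library, in CPM scaled by the trimmed mean of M-values (TMM) on a log axis; circles are replicate 1, triangles replicate 2, and bars the mean of 2 libraries. The libraries of a group lie close together for most genes, while SMAD4 and SKIL are widely spread in shIGF2BP3 and TGFBR2 in shCtrl.

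TGFB1, the principal TGF-beta ligand (GRCh38 chromosome 19, 41301587 to 41353911, minus strand), overlapped between the groups. It was measured at 435.5 and 489.7 CPM in shCtrl and at 422.8 and 458.8 CPM in shIGF2BP3. The means were 462.6 ± 38.4 and 440.8 ± 25.4 CPM (SD, n = 2 each), and the log2 fold change of -0.07 ± 0.14 (SE) had an adjusted p of 0.856. TGFB1 overlaps HNRNPUL1, CCDC97 and TMEM91 on the opposite strand, and whether the counting used strand is not stated. Reads in the shared stretches therefore cannot be told apart. The stretch below position 41330323 belongs only to ENST00000598758, at 16 to 21 counts per library, and not to ENST00000221930.

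TGFB2 encodes a second ligand, which depends on the co-receptor TGFBR3 to bind its receptors with high affinity. The gene lies on chromosome 1, 218346235 to 218444619, plus strand. It was measured at 13.1 and 11.1 CPM in shCtrl and 13.4 and 17.5 CPM in shIGF2BP3. Both shIGF2BP3 libraries were above both controls, the nearest pair being 13.1 and 13.4 CPM. The log2 fold change was 0.34 ± 0.21 (SE) with an adjusted p of 0.563 by edgeR.

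The receptors showed one even and one uneven pattern. TGFBR1, the type I receptor kinase (chromosome 9, 99104038 to 99154192, plus strand), was at 33.4 and 27.1 CPM in shCtrl and 34.6 and 32.6 CPM in shIGF2BP3. The groups overlapped, and the log2 fold change was 0.15 ± 0.17 (SE; adjusted p = 0.732, edgeR). TGFBR2, the type II receptor that binds the ligand first (chromosome 3, 30606502 to 30694142, plus strand), was at 11.0 and 25.9 CPM in shCtrl and 29.9 and 28.1 CPM in shIGF2BP3. Here 1 control library, replicate 1, was low and the other 3 libraries lay close together. The log2 fold change of 0.65 ± 0.40 (SE), a fold of 1.57, did not pass the test (adjusted p = 0.556, edgeR). Without shCtrl replicate 2 it was 1.39 and would have been called, and without shCtrl replicate 1 it was 0.17. The lowest adjusted p in any fit that left out a library was 0.326. The 2 controls differed 2.35-fold, a gap of at least 2-fold that 5.86% of all genes tested showed in shCtrl.

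SMAD2 and SMAD3, the SMADs phosphorylated by the type I receptor, did not pass the test. SMAD2 (chromosome 18, 47808957 to 47931146, minus strand) was at 56.7 and 49.8 CPM in shCtrl and 56.0 and 56.8 CPM in shIGF2BP3. Its log2 fold change of 0.08 ± 0.14 (SE; adjusted p = 0.827, edgeR) turned to -0.0025 with library totals in place of TMM. SMAD3 (chromosome 15, 67063763 to 67195195, plus strand) was at 167.7 and 166.5 CPM in shCtrl and 162.5 and 148.4 CPM in shIGF2BP3. Both knockdown libraries were thus below both controls, by a log2 fold change of -0.10 ± 0.13 (SE; adjusted p = 0.763, edgeR).

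SMAD4, the partner shared by all receptor-activated SMADs (chromosome 18, 51028394 to 51085045, plus strand), had means of 21.1 ± 6.66 CPM in shCtrl and 21.9 ± 18.5 CPM in shIGF2BP3 (SD, n = 2 each). The 2 shIGF2BP3 libraries stood on opposite sides of the controls, at 8.81 and 34.97 CPM. The controls themselves were at 25.8 and 16.4 CPM. The fitted log2 fold change came to 0.05 ± 0.63 (SE; adjusted p = 0.981, edgeR). Without shIGF2BP3 replicate 2 it was -1.26 and would have been called, and without replicate 1 it was 0.74. The adjusted p was at least 0.388 in every fit that left out a library. SMAD4 shares its strand with ENSG00000267699, which had at most 6 counts in any library.

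The inhibitors differed in how well their libraries agreed. SMAD7, which blocks the type I receptor and is itself induced by the pathway (chromosome 18, 48919853 to 48950711, minus strand), was at 12.7 and 13.3 CPM in shCtrl and 17.0 and 13.7 CPM in shIGF2BP3. Both knockdown libraries were above both controls, with a log2 fold change of 0.24 ± 0.19 (SE; adjusted p = 0.638, edgeR). SKIL, a co-repressor of SMAD complexes (chromosome 3, 170357715 to 170396835, plus strand), was at 20.3 and 18.2 CPM in shCtrl but at 8.32 and 30.0 CPM in shIGF2BP3. As with SMAD4, replicate 1 of shIGF2BP3 was the lowest of the 4 libraries and replicate 2 the highest. The log2 fold change was -0.01 ± 0.56 (SE; adjusted p = 0.996, edgeR). It was -1.21 without shIGF2BP3 replicate 2 and 0.65 without replicate 1, so either omission would have given a call, in opposite directions. The adjusted p was at least 0.320 in every fit that left out a library.

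SMAD4 and SKIL differed 3.97-fold and 3.60-fold between the 2 shIGF2BP3 libraries. A gap of at least 3-fold was found in 3.27% of all genes tested in that group, where the median gap was 1.15-fold. For the other 7 genes the replicates in shIGF2BP3 differed by 1.01-fold to 1.31-fold. The mitochondrial share of these libraries also differed, 11.4% and 17.0%, and its part in the gaps was not tested.

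**Figure D2:**
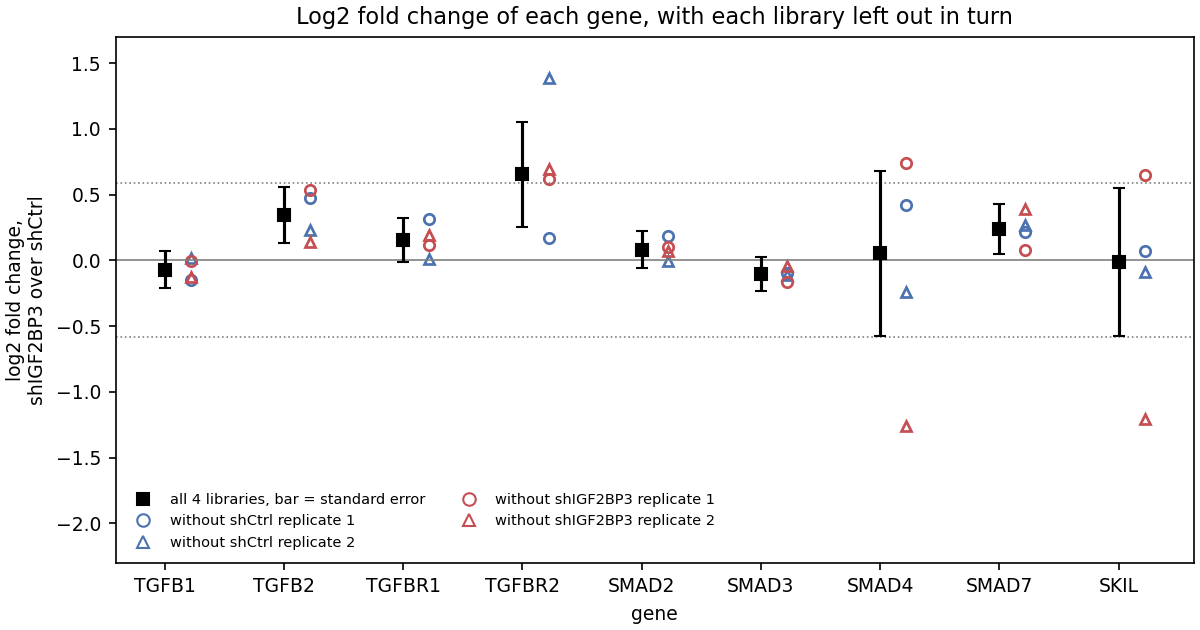
Log2 fold change of each gene in shIGF2BP3 over shCtrl from all 4 libraries (squares, bars are standard errors) and with each library left out in turn (open symbols); dotted lines mark a fold of 1.5. The estimates of SMAD4 and SKIL move from -1.26 and -1.21 to 0.74 and 0.65 depending on which shIGF2BP3 library is left out, and that of TGFBR2 reaches 1.39 without shCtrl replicate 2.

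Levels of different genes were compared as FPKM, which corrects for transcript length, summed over the transcripts of a gene. In shCtrl, TGFB1 led at 144.7 and 146.8 FPKM. SMAD3 followed at 34.5 and 29.9 FPKM and SMAD2 at 9.37 and 5.75 FPKM, and these first 3 genes were separated from each other and from the rest. The remaining order was TGFBR1, SMAD7, TGFBR2, SKIL, SMAD4 and TGFB2, from 5.01 down to 1.84 FPKM, and each of these overlapped its neighbour between libraries. TGFB1 was therefore the more abundant ligand and SMAD3 the more abundant receptor-activated SMAD in all 4 libraries, with lowest values of 132.8 and 20.4 FPKM. On this scale SMAD3 was at 25.5 and 20.4 FPKM in shIGF2BP3, and its log2 fold change reached -0.49 by limma on log2(FPKM + 0.1), beside -0.10 on the counts, with adjusted p-values over all settings of 0.465 or more.

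Single transcripts were then examined, since the files give a count for each. A TGF-beta transcript here is one that the table assigns to 1 of the 9 genes. Of 59 such transcripts, 48 were above 0 in at least 1 library and 25 passed the filter, so 34 were not tested. At the same thresholds 4 of the 25 were called, 3 lower and 1 higher in shIGF2BP3, against 6.30% of all 37927 transcripts tested (2388 transcripts). In 2 of these 4, and in 707 of all 2388 called, a group was at 0 in both libraries. None of the 37927 transcripts had an adjusted p under 0.05 by edgeR, the lowest being 0.306, while for 2493 the p before adjustment did not exceed 0.05 and DESeq2 called 1434 at the adjusted threshold.

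The called transcript of TGFB2 was ENST00000366929, the minor of its 2 transcripts. It had 36 and 57 estimated counts in the controls and was at 0 in both knockdown libraries. The major transcript ENST00000366930, which the table places at the same start and end, had 458 and 320 counts in shCtrl and 461 and 481 in shIGF2BP3. ENST00000366929 thus held 7.29% (95% Wilson interval 5.31 to 9.92) and 15.1% (11.9 to 19.1) of the gene's counts in shCtrl. In shIGF2BP3 it held 0 of 461 and 0 of 481 counts, which allows a share of up to 0.651% and 0.624%. These intervals and limits cover counting error only and not the assignment of shared reads to transcripts. Against a floor of 3 counts per library ENST00000366929 was at least 13.2-fold lower (adjusted p = 0.440, edgeR).

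A test of transcript usage, which sets each transcript's change against that of its gene (diffSpliceDGE in edgeR), gave ENST00000366929 an adjusted p of 0.0462. It was the only 1 of 23 TGF-beta transcripts so tested to pass, against 0.830% of all 33125 transcripts (275 transcripts). The call was lost when any 1 library was left out, with adjusted p-values from 0.230 to 0.367, and with the replicate number as a block (adjusted p = 0.418). Its fitted log2 change relative to the gene was -8.81 with all libraries and lay between -9.24 and -8.23 in these fits. In each of them shIGF2BP3 was still at 0, so the value depends on the prior count. Its steadiness is therefore no support for the call.

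SKIL showed a like pattern at lower counts. ENST00000426052 had 23 and 24 estimated counts in shCtrl and 0 and 0 in shIGF2BP3, at least 6.64-fold lower against the same floor (adjusted p = 0.445, edgeR). It held 3.02% and 3.88% of the SKIL counts in shCtrl, and the major transcript ENST00000458537 held 92.1% and 87.4%. In shIGF2BP3 the major transcript was at 210 and 792 counts, and ENST00000259119 took 25.1% in replicate 1 but 2.30% in replicate 2. The usage test of ENST00000426052 gave an adjusted p of 0.557.

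SMAD3 held the remaining pair of called transcripts. ENST00000540846 starts 59871 bases downstream of the start of the major transcript ENST00000327367, and fell from 183 and 511 counts in shCtrl to 31 and 33 counts in shIGF2BP3. Its log2 fold change was -3.22 ± 0.76 (SE; adjusted p = 0.527, edgeR). The groups were well apart, although the controls differed from each other as well. Its share of the SMAD3 counts was 2.90% and 9.06% in shCtrl and 0.553% and 0.807% in shIGF2BP3, and its usage test gave an adjusted p of 0.903.

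ENST00000560424, which starts 118930 bases downstream of the same start, had 1 and 0 counts in the controls and 12 and 9 in the knockdown. The summed counts, 21 against 1, gave a ratio of 24.5 per library size (adjusted p of the transcript = 0.632, edgeR). The exact 95% counting interval of 3.94 to 1013.4 leaves out the spread between libraries. This transcript passed the filter only through its shIGF2BP3 counts and was picked because it was called. The interval is therefore no test of the difference. The major transcript ENST00000327367 overlapped between the groups, at 5715 and 5064 counts in shCtrl and 5472 and 4017 in shIGF2BP3, with a log2 fold change of 0.03 ± 0.12 (SE; adjusted p = 0.999, edgeR). Per length it stood at 22.3 and 19.8 FPKM in shCtrl and 22.01 and 18.6 FPKM in shIGF2BP3, while ENST00000540846 stood at 2.84 and 7.98 FPKM in shCtrl and 0.493 and 0.596 FPKM in shIGF2BP3. A further 7.21 FPKM in shCtrl replicate 1 came from ENST00000537194, which was at 0 in every other library. The lower SMAD3 sum in FPKM was thus not seen in the major transcript.

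These 4 calls rest on few libraries. Those of TGFB2 ENST00000366929, SKIL ENST00000426052 and SMAD3 ENST00000560424 were lost when either shCtrl library was left out, and with the replicate number as a block, as the p before adjustment then exceeded 0.05. The fitted log2 fold change, which depends on the prior count where a group is at 0, stayed between -8.72 and -8.00 for TGFB2 ENST00000366929 and between -7.48 and -7.35 for SKIL ENST00000426052. For SMAD3 ENST00000560424 it was 6.46 without shCtrl replicate 1 and 3.49 without replicate 2. SMAD3 ENST00000540846 was no longer called without shIGF2BP3 replicate 1 (log2 fold change -3.01) or replicate 2 (-3.43). It was still called with the block (-3.02), without shCtrl replicate 1 (-3.80) and without shCtrl replicate 2 (-2.21). SMAD3 ENST00000560424 did not pass the filter once a shIGF2BP3 library was left out.

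**Figure D3:**
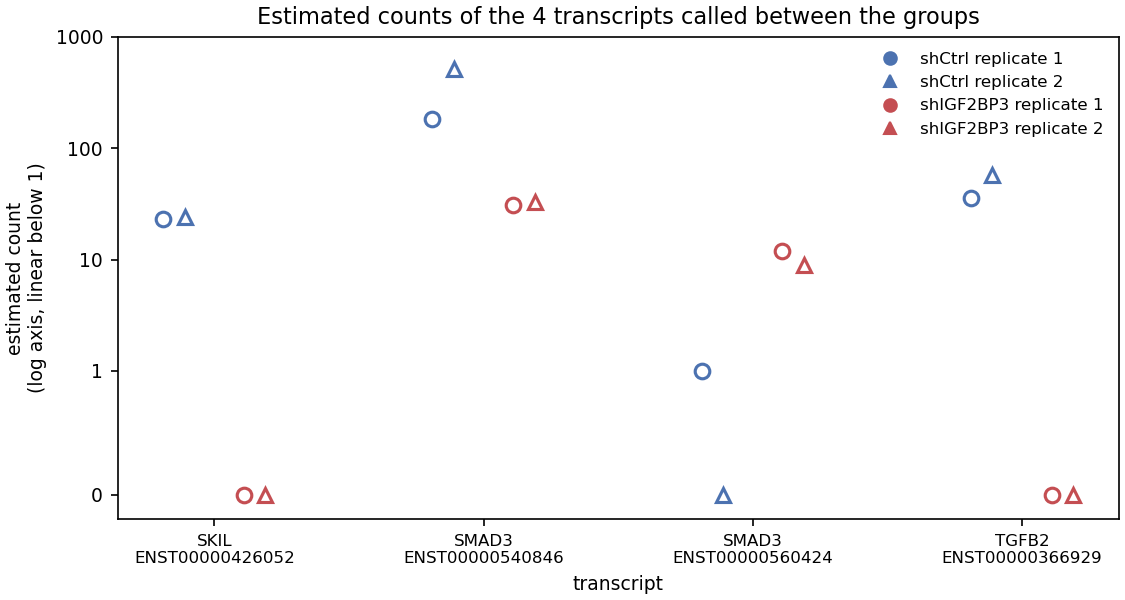
Estimated counts per library of the 4 called transcripts of SKIL, SMAD3 and TGFB2 on a log axis that is linear below 1; blue is shCtrl, red shIGF2BP3, circles replicate 1 and triangles replicate 2. Transcripts of TGFB2 and SKIL are at 0 in both shIGF2BP3 libraries, SMAD3 ENST00000540846 is lower and SMAD3 ENST00000560424 higher.

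Zeros of this kind also separated replicates. Among TGF-beta transcripts with at least 20 counts in a library, 6 of 30 (20%) were at 0 in the other library of the same group, beside 16% of 38658 transcripts over the whole table. TGFBR1 ENST00000552516 had 859 counts in shCtrl replicate 1 and 0 in the other 3 libraries, and TGFBR1 ENST00000374990 had 580 counts in shIGF2BP3 replicate 1 alone. SMAD3 ENST00000537194 (339 counts) and SMAD7 ENST00000589634 (30 counts) were found in shCtrl replicate 1 alone, and SMAD4 ENST00000592186 (78 counts) in shIGF2BP3 replicate 1 alone. Counts of at least 20 in both shCtrl libraries with 0 in both shIGF2BP3 libraries were found for 2 of 18 TGF-beta transcripts and for 1.37% of 26814 transcripts in all. The reverse was found for 0 of 13 and for 0.461% of 23656.

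TGFBR2 showed a wide exchange between transcripts. Its transcript ENST00000359013 held 83.1% and 27.1% of the TGFBR2 counts in the controls and 90.4% and 0% in shIGF2BP3, and ENST00000295754 held the rest. The latter had 70 and 639 counts in shCtrl and 99 and 775 in shIGF2BP3, so each group held 1 low and 1 high library. Neither transcript was called (log2 fold changes 0.76 ± 2.75 and 0.62 ± 1.66, SE). The low TGFBR2 sum in shCtrl replicate 1 and the TGFBR2 sum in shIGF2BP3 replicate 1 both consisted mostly of ENST00000359013.

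TGFBR1 varied in the same way, its major transcript ENST00000374994 with 31.6% and 100% of the TGFBR1 counts in the controls and 51.3% and 98.7% in the knockdown. In replicate 1 of each group another transcript took the remainder, a different one in each group. SMAD2 split between ENST00000356825, at 68.1% and 45.5% in shCtrl and 40.3% and 78.6% in shIGF2BP3, and ENST00000262160, at 18.7%, 38.7%, 39.5% and 12.3%. Which of these was larger was the same in all libraries but the margin closed to 779 against 762 counts in shIGF2BP3 replicate 1. The gene sums of TGFBR1 and SMAD2 in CPM nevertheless differed by at most 1.23-fold between replicates, while in FPKM the controls were at 5.01 and 3.43 for TGFBR1 and at 9.37 and 5.75 for SMAD2.

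The SMAD4 major transcript ENST00000342988 held 94.4% and 91.3% of the SMAD4 counts in the controls and 55.3% and 77.8% in the knockdown. In shIGF2BP3 replicate 2, ENST00000398417 took 21.7% (209 counts), having 0 counts in both controls and 1 in replicate 1. Counted per length, SMAD4 was at 3.16 and 3.22 FPKM in the 2 shIGF2BP3 libraries, so the 3.97-fold gap in counts was absent from the FPKM sum. In replicate 1 of shIGF2BP3, 1.503 of these 3.16 FPKM came from ENST00000592186. The major transcript ENST00000342988 still differed between the 2 shIGF2BP3 libraries, at 0.48 and 2.47 FPKM. The gap in the SKIL sum remained in FPKM, at 1.499 and 3.66.

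Little exchange was found in TGFB1, whose ENST00000221930 held at least 99.8% of the counts in every library, and SMAD7, whose ENST00000262158 held 91.7% to 99.8%. SMAD3 ENST00000327367 moved little between replicates but differed more between groups. It held 90.7% and 89.8% in shCtrl and 97.6% and 98.3% in shIGF2BP3. For the leading transcript of each of the 9 genes, the share moved between replicates by a median of 12.8 percentage points, beside 7.21 points over 11570 tested genes with more than 1 transcript. A movement of at least 20 points was found in 33.3% of the 9 genes and in 27.9% of the 11570.

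**Figure D4:**
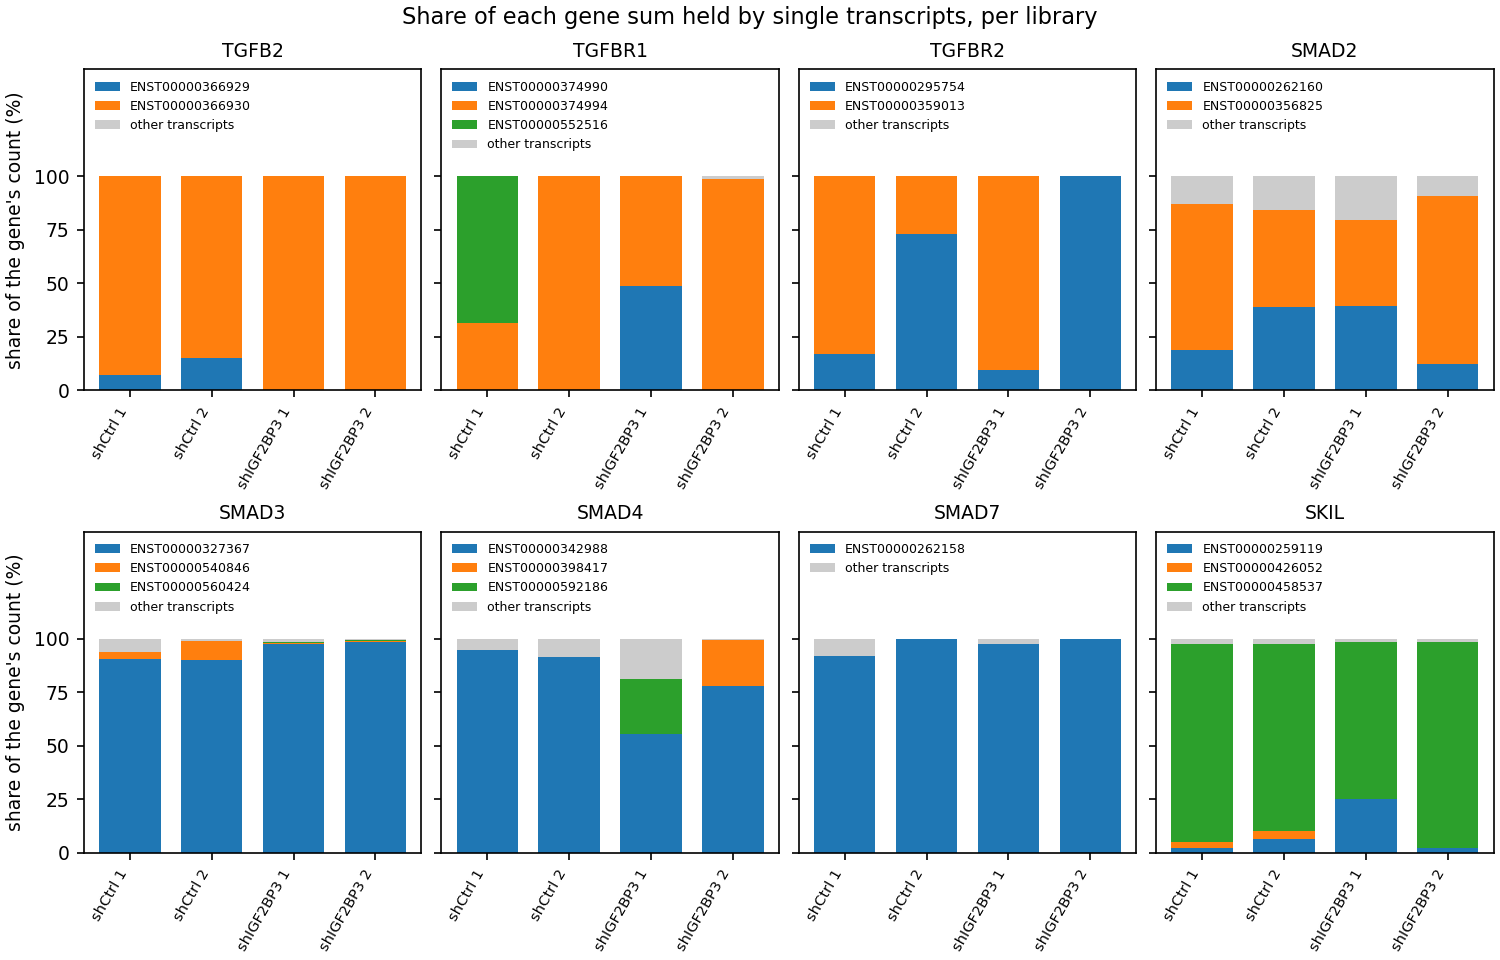
Share of the gene's estimated counts held by each named transcript (y axis, %), 1 bar per library, for the 8 genes other than TGFB1; grey is the sum of the other transcripts. In TGFBR1, TGFBR2 and SMAD2 the shares differ more between replicates of a group than between the group means, whereas the TGFB2 minor transcript is present in both shCtrl libraries and at 0 in both shIGF2BP3 libraries.

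Other genes of the pathway were read from 4 lists with 62 genes in all, of which 55 passed the filter. At the same thresholds 1 rose and 1 fell. A p of at most 0.05 before adjustment was found for 7 of the 55, beside 1411 of all 13379 genes tested. None of the 55 had an adjusted p under 0.05 by edgeR. The share of all genes called higher was 2.54% and called lower 2.78%. The groups did not overlap in 25 of the 55, beside 46.8% of all genes tested, and the median log2 fold change was 0.03.

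The list of other ligands and proteins of the latent complex held 13 genes, 9 of them tested and 0 called, with a median log2 fold change of -0.06. LTBP3, which tethers latent TGF-beta to the matrix, had the smallest p, at 85.8 and 90.9 CPM in shCtrl and 74.6 and 71.7 CPM in shIGF2BP3 (log2 fold change -0.27 ± 0.13, SE; adjusted p = 0.498). LTBP1, of the same family, followed at 0.20 ± 0.19 (SE; adjusted p = 0.697). INHBA, INHBB, NRROS and LRRC32 were not tested, with at most 0.058 CPM in any library.

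Of 10 other receptors and co-receptors, 9 were tested and 0 called. Their median log2 fold change was 0.17, and 5 of them were higher in both knockdown libraries than in both controls, which holds for 23.3% of all genes tested. ACVR2A, a type II activin receptor, was at 14.2 and 11.2 CPM in shCtrl and 17.2 and 18.0 CPM in shIGF2BP3 (0.48 ± 0.19, SE; adjusted p = 0.476). TGFBR3, the betaglycan co-receptor, was at 22.9 and 18.5 CPM in shCtrl and 30.3 and 25.9 CPM in shIGF2BP3 (0.45 ± 0.19, SE; adjusted p = 0.480). Both exceeded the fold threshold without shCtrl replicate 1, at 0.66 and 0.61. Without shCtrl replicate 2 they were further below it, at 0.315 and 0.299.

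All 19 other SMADs, co-repressors and ubiquitin regulators were tested, and 1 was called. STRAP, which binds SMAD7 and TGF-beta receptors and also takes part in assembling spliceosomal particles, rose from 261.7 and 203.8 CPM in shCtrl to 351.9 and 364.7 CPM in shIGF2BP3. The log2 fold change was 0.62 ± 0.17 (SE; adjusted p = 0.472, edgeR). It fell under the fold threshold without shCtrl replicate 2 (0.45) and with library totals in place of TMM (0.53), and was then no longer called. The same held by limma on log2 FPKM with pseudocounts of 1 (0.534) and 0.1 (0.537). TGIF1, a co-repressor of SMAD2, was at 0.41 ± 0.16 (SE; adjusted p = 0.472) and under the fold threshold.

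Of 20 widely used transcriptional targets of the pathway, 18 were tested and 1 was called, with a median log2 fold change of 0.04. TGM2, a transglutaminase that crosslinks matrix proteins, fell from 34.1 and 37.2 CPM in shCtrl to 21.8 and 17.7 CPM in shIGF2BP3 (log2 fold change -0.85 ± 0.17, SE; adjusted p = 0.472, edgeR). CDKN1A, the cell cycle inhibitor p21, was at 27.8 and 28.9 CPM in shCtrl and 20.3 and 19.7 CPM in shIGF2BP3 (-0.50 ± 0.15, SE; adjusted p = 0.472), which is under the fold threshold. By edgeR, LOX (0.485), CCN1 (0.346) and ID3 (-0.425) also had a p of at most 0.05 before adjustment, each under the fold threshold. The estimates of this list were split, 10 above and 8 below 0.

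**Figure D5:**
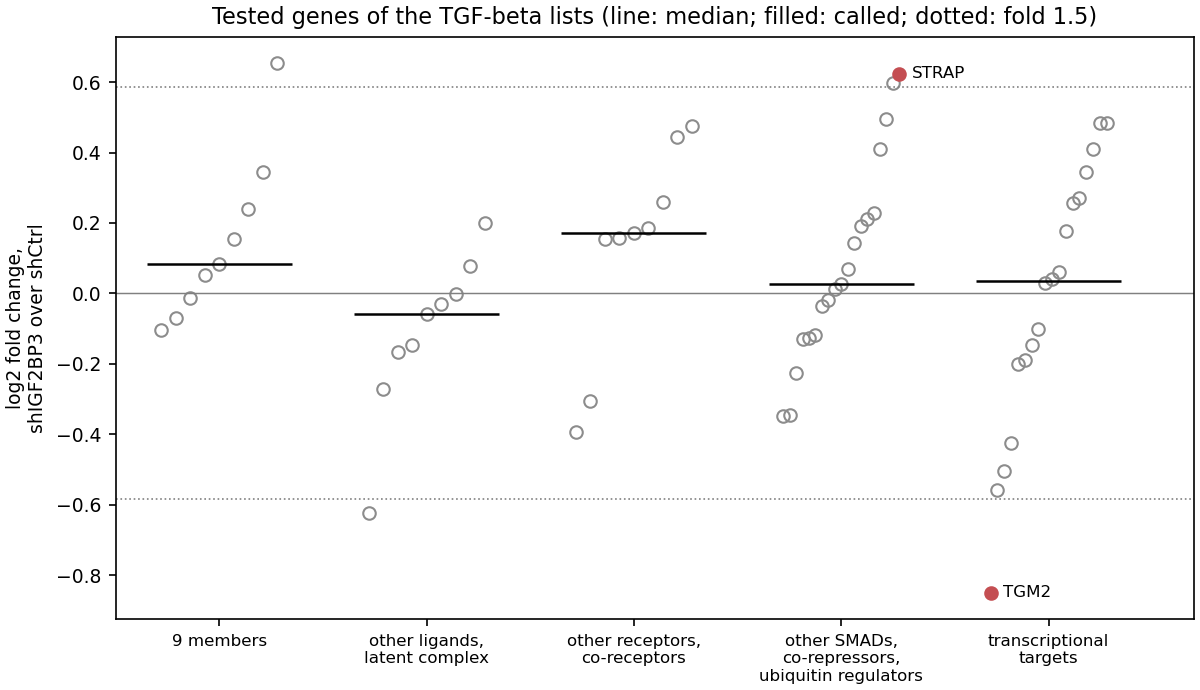
Log2 fold change in shIGF2BP3 over shCtrl of each tested gene among the 9 TGF-beta genes and the 4 pathway lists; horizontal bars are medians, dotted lines a fold of 1.5, and filled points the called genes. The medians run from -0.06 to 0.17, and only STRAP (0.62) and TGM2 (-0.85) are called.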

How the data were processed

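RNA of H1299 cells was extracted with Trizol and libraries were made with a VAHTS mRNA-seq kit. The authors deposited estimated counts per transcript, whole numbers without normalization, and FPKM per transcript, scaled by length and library size. The submitters' processing notes name CASAVA, Trimmomatic, HISAT2, bedtools, FastQC and GRCh38; the counting tool and annotation are not given in the sources used here. Low estimated counts are coarse: for 960 transcripts with 1 count in both shCtrl libraries, the FPKM ratio between them lay from 0.075 (5th percentile) to 20.5 (95th). Labels number the replicates 1 and 2 in each group, whereas in the deposited columns the numbers of shIGF2BP3 are 2 and 3.

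Counts and FPKM were summed per gene. Symbols came from RefSeq GRCh38.p14 by position, where the overlap was 0.5 or more of the joint length and led any other gene's by 0.2 (18218 genes named). Genes and transcripts were fitted in R 4.3.3 by edgeR 4.0.16 (TMM, filterByExpr with a minimum count of 10 and total of 15, quasi-likelihood test, prior count 0.125) and usage with diffSpliceDGE, adjusted by Benjamini-Hochberg over all features tested. The biological coefficient of variation of the gene-level fit was 22.8%, so for genes with many counts the 2 libraries per group limit precision more than depth does. For transcripts with few counts, counting error limits it as well. The steps were tested on simulated data.

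Named were all 9 genes, their transcripts with at least 10% of the gene's counts in either group mean or called, the targeted gene, and, per pathway list, the called genes and the 2 with the smallest p. ENST00000537194, ENST00000589634, LOX, CCN1 and ID3 were named after their values were seen. The genes and lists were chosen with earlier results of these data known. Alternatives were RLE factors, library totals, no filter, DESeq2 1.42.0, limma 3.58.1 on log2 FPKM with pseudocounts of 1 and 0.1 where 2 libraries reached 1 FPKM, a replicate block, other usage tests, and each library left out.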

Additional observations from a re-analysis of the deposited data

How the results depend on the processing

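Of 252 alternative values of single genes and transcripts, 212 kept their direction and their side of the threshold. A further 20 lost a call, 8 gained one without turning direction and 12 turned direction. The 12 were counted so whether or not they also gained a call. Against 0 TGF-beta genes called, leaving out 1 library gave 0 to 2 (TGFBR2 at 1.39 without shCtrl replicate 2, SMAD4 and SKIL without shIGF2BP3 replicate 2, SKIL without replicate 1), and no other setting gave any. Against 2 pathway genes, library totals gave 1, DESeq2 4, no filter 4 and leaving out 1 library 2 to 6. Against 4 called transcripts, DESeq2 gave 8, limma on log2(FPKM + 1) 1 and leaving out 1 library 1 to 7. The FPKM filter of that limma fit removed TGFB2 ENST00000366929, SKIL ENST00000426052 and SMAD3 ENST00000560424, so it did not test them. The replicate block gave 1, and this block has fewer residual degrees of freedom. The replicate numbers are not stated to pair the samples. Deviations from the group means correlated at 0.022 between libraries of the same number, which cannot settle whether cultures were paired. At an adjusted p under 0.05, DESeq2 gave 5 transcripts where edgeR gave 0. Among them were TGFB2 ENST00000366929 (DESeq2 adjusted p = 0.0049), SMAD3 ENST00000540846 (0.026) and SKIL ENST00000426052 (0.042). The others were TGFBR1 ENST00000374990 and ENST00000552516, each counted in 1 library only. The 1 usage call became 0 with at least 10 counts in every library and with limma diffSplice, whose filters remove that transcript, 0 with the replicate block and 0 in each fit that left out 1 library. Direction turned for TGFB1 (-0.148 to 0.0172 with 1 library left out), SMAD2 (-0.00246 with library totals, -0.172 and -0.19 by limma with pseudocounts of 1 and 0.1, -0.00864 to 0.183 with 1 library left out), SMAD4 (-0.0848 with library totals, -0.218 with the replicate block, -0.000379 with totals without mitochondrial genes, an alternative chosen after seeing the data, and -1.26 to 0.739 with 1 library left out) and SKIL (-1.21 to 0.646). The cause was not tested. Library totals moved the median of all genes to -0.081, against -0.002 in the test with TMM.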
